A study of Mus musculus with 4 samples.

Results

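The genes described here are 7 genes of red blood cells, measured in the liver of Fto knockout (KO) and wild-type (WT) mice: the adult alpha globins Hba-a1 and Hba-a2, the adult beta globins Hbb-bs and Hbb-bt, the haem synthesis enzyme Alas2, the transcription factor Klf1 and the membrane transporter Slc4a1. They were taken by name from the 37315 genes of the count tables, through their Ensembl identifiers in GENCODE release M21. Of the 7 genes, 6 had enough reads to be tested, among 13836 tested genes in all, and Slc4a1 did not. The comparison asks how much red cell RNA each library carried and whether it differed between the genotypes.

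The data are RNA-seq counts per gene from liver of 23-week-old C57BL/6 mice, with 2 libraries of Fto KO liver and 2 of Fto WT liver. Fto encodes a demethylase of RNA. The labels give no sex and no knockout allele, and do not say whether Fto was deleted in the whole animal or in one cell type, or whether the libraries came from separate mice. A p-value here therefore reflects how far these 4 libraries spread, and that spread may be technical. Total counts were 44689114 and 40947808 in the KO libraries, against 41332870 and 39549592 in the WT libraries. Before the TMM scaling between libraries, which the levels below include, 1 read was worth 0.0224 to 0.0253 CPM (counts-per-million). Fto itself had 607 and 486 reads in the KO libraries, against 1749 and 1292 reads in the WT libraries. Its level fell to 12.6 ± 0.697 CPM in KO liver, against 37.6 ± 5.16 CPM in WT liver (SD, n = 2 each), which on the log2 scale is a change of -1.57 (SE 0.195), with an adjusted p of 0.0109 in edgeR's quasi-likelihood test, so reads from the Fto locus remained in the KO libraries. Over all tested genes, 264 were called at an adjusted p under 0.05, 133 higher and 131 lower in KO. The tools DESeq2 and limma-voom, used as alternatives, called 574 and 258 of the same genes.

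Haemoglobin is a tetramer of alpha and beta chains, each holding a haem group, and red blood cells fill themselves with it as they mature in the bone marrow. Mature red cells have no nucleus, but the youngest circulating ones, the reticulocytes, still carry globin messenger RNA, so tissue with blood in it yields globin reads. The adult mouse liver is perfused with blood and no longer makes red cells in quantity, and its macrophages, the Kupffer cells, take up aged red cells and recycle their iron. Klf1 is the erythroid Krüppel-like factor, which binds CACCC boxes and activates the adult beta-globin gene and many other red cell genes. Alas2 carries out the initial, rate-limiting step of haem synthesis in red cell precursors, and Slc4a1 is band 3, the anion exchanger of the red cell membrane.

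The 2 alpha globins lie on chromosome 11, Hba-a1 (ENSMUSG00000069919) at chr11:32283511-32284465 and Hba-a2 (ENSMUSG00000069917) at chr11:32296489-32297298, both on the plus strand. The 2 beta globins lie on chromosome 7, Hbb-bs (ENSMUSG00000052305) at chr7:103826534-103828096 and Hbb-bt (ENSMUSG00000073940) at chr7:103812524-103813996, both on the minus strand. Coordinates are those of GENCODE M21 on the mm10 assembly. Within each pair the coding sequences differ at 1 base: 428 of 429 coding bases are the same in Hba-a1 and Hba-a2, and 443 of 444 in Hbb-bs and Hbb-bt. The 41 bases around that difference are shown because they mark how little of the coding sequence can assign a read to 1 gene of a pair. Positions are counted from 1 at the A of the start codon, the capital marks the differing base, and the sequences are read 5′ to 3′ from the GENCODE M21 transcripts.
Hba-a1, coding bases 361 to 401: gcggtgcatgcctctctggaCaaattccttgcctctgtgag
Hba-a2, coding bases 361 to 401: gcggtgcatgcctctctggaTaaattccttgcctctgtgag
Hbb-bs, coding bases 397 to 437: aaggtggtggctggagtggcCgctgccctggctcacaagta
Hbb-bt, coding bases 397 to 437: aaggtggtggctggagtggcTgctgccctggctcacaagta
From Hba-a1 to Hba-a2 the difference is C381T, and from Hbb-bs to Hbb-bt it is C417T. Of the 101-base windows of the longest transcript, the length of 1 read, 337 of 599 in Hba-a1 (56.3%) also occur in Hba-a2, which holds 454 such windows (74.2% shared). For the beta pair, 330 of 528 windows of Hbb-bs (62.5%) also occur in Hbb-bt, which holds 603 (54.7% shared). No window was shared between Hba-a1 and Hbb-bs. A read from a shared window cannot be assigned by its own sequence to 1 gene of a pair. The libraries were read in pairs, so the mate of such a read could place it, which these window counts leave out. How far that was done is not known, so the split within a gene pair is uncertain. The sums of each gene pair are given beside the single genes.

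All 4 adult globins had fewer reads in both KO libraries than in both WT libraries, and none of the 4 passed the test on its own. Hba-a1 had 733 and 651 reads (15.9 and 16.3 CPM) in KO liver, against 1145 and 966 reads (27.0 and 25.4 CPM) in WT liver. The 2 KO libraries lay close together and well under the lower WT library. The log2 fold change of Hba-a1 was -0.71 (SE 0.178), with an adjusted p of 0.115 in edgeR's quasi-likelihood test. Hba-a2 had 499 and 316 reads (10.8 and 7.90 CPM) in KO liver, against 753 and 633 reads (17.8 and 16.6 CPM) in WT liver. The second KO library was the lowest of the 4 and differed more from the other KO library than the WT libraries did from each other. The log2 fold change of Hba-a2 was -0.88 (SE 0.216, adjusted p = 0.107, edgeR). In bulk tissue, the number of cells that carry globin RNA and the amount in each cell cannot be told apart.

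Hbb-bs was the globin with the most reads, 1481 and 1591 (32.0 and 39.8 CPM) in KO liver, against 2439 and 2571 (57.5 and 67.5 CPM) in WT liver. The groups did not overlap. Its log2 fold change was -0.80 (SE 0.198, adjusted p = 0.108, edgeR). Hbb-bt had 236 and 268 reads (5.10 and 6.70 CPM) in KO liver, against 467 and 442 reads (11.0 and 11.6 CPM) in WT liver. Here too both KO libraries were below both WT libraries. The log2 fold change of Hbb-bt was -0.94 (SE 0.221, adjusted p = 0.0890, edgeR), the lowest of the 4 globins in this fit. Each library was also left out in turn, so that 1 genotype had 1 library. The log2 fold changes then lay between -0.76 and -0.66 for Hba-a1 and between -1.12 and -0.68 for Hba-a2. They lay between -0.97 and -0.65 for Hbb-bs and between -1.15 and -0.76 for Hbb-bt. DESeq2 in place of edgeR called Hba-a2 (adjusted p = 0.0243), Hbb-bs (adjusted p = 0.0223) and Hbb-bt (adjusted p = 0.0237) with nearly the same fold changes, and not Hba-a1 (adjusted p = 0.0573).

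Summing each pair, which removes the split within it but not any loss of reads that match both genes, gave 1232 and 967 alpha-globin reads in KO liver, against 1898 and 1599 in WT liver. On the CPM scale the alpha sum was 26.6 and 24.2 in KO liver, against 44.7 and 42.0 in WT liver, so the KO level was 58.6% of the WT level. The beta sum was 1717 and 1859 reads in KO liver, against 2906 and 3013 reads in WT liver, or 37.1 and 46.4 CPM in KO liver, against 68.5 and 79.1 CPM in WT liver. The KO level of the beta sum was 56.6% of the WT level. The log2 fold changes were -0.77 for alpha (SE 0.179, adjusted p = 0.0858) and -0.82 for beta (SE 0.197, adjusted p = 0.0985) by edgeR, neither past the threshold. DESeq2 called both, with adjusted p of 0.0188 for alpha and 0.0164 for beta.

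**Figure D1:**
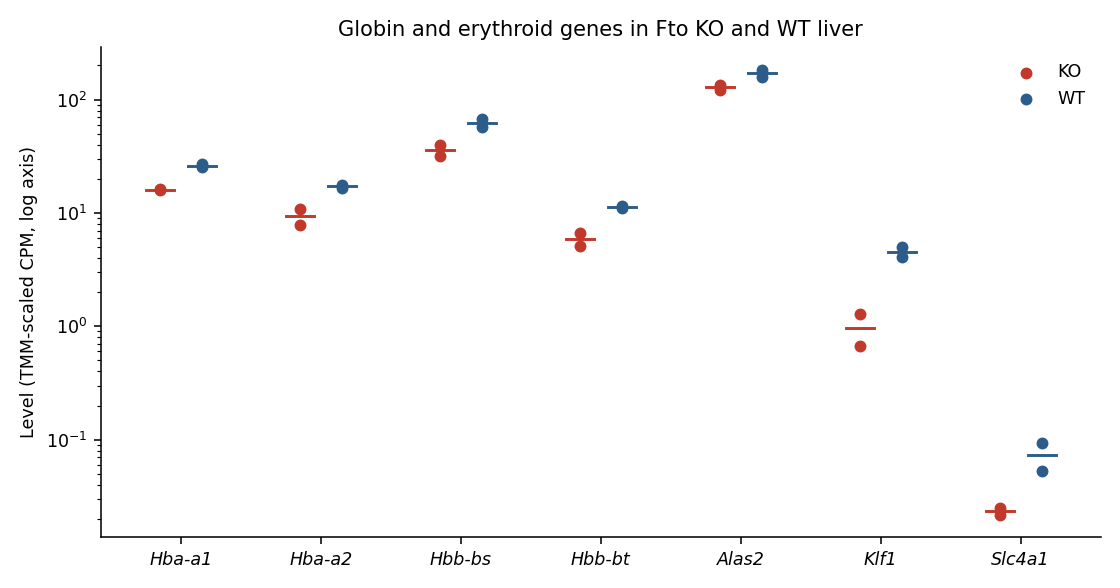
Level of the 7 genes in CPM after TMM scaling, on a log axis, with KO left of WT, 1 point per library and a line at the mean of each genotype. For every gene both KO points lie below both WT points, with the widest gap for Klf1, at 0.671 and 1.27 CPM in KO liver, against 4.06 and 4.97 CPM in WT liver.

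Together the 4 adult globins had 2949 and 2826 reads in KO liver, against 4804 and 4612 reads in WT liver. That was 0.00660% (exact binomial 95% interval 0.00636 to 0.00684) and 0.00690% (0.00665 to 0.00716) of all counts in KO liver, against 0.0116% (0.0113 to 0.0120) and 0.0117% (0.0113 to 0.0120) in WT liver. The intervals of the KO libraries overlapped each other and lay below those of the WT libraries; they cover counting error only. The ratio of KO to WT mean shares was 0.580, and 0.575 with mitochondrially encoded genes left out of the total. These genes took 5.81% and 7.49% of counts in KO liver, against 7.25% and 7.52% in WT liver. The exact two-sided permutation test of the globin share gave p = 0.333, the smallest that 2 libraries against 2 can give.

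The balance of alpha to beta reads overlapped between the genotypes. Alpha globins made up 41.8% and 34.2% of globin reads in KO liver, against 39.5% and 34.7% in WT liver, so the KO libraries lay on both sides of the WT libraries. There were 1.39 and 1.92 beta reads per alpha read in KO liver, against 1.53 and 1.88 in WT liver (exact two-sided permutation p = 1.0). Hba-a1 took 59.5% (exact 95% interval 56.7 to 62.3) and 67.3% (64.3 to 70.3) of alpha reads in KO liver, against 60.3% (58.1 to 62.5) and 60.4% (58.0 to 62.8) in WT liver, so the second KO library stood apart from the other 3. Hbb-bt took 13.7% and 14.4% of beta reads in KO liver, against 16.1% and 14.7% in WT liver (exact permutation p = 0.333). All of these shares rest on how reads that match both genes of a pair were counted. If such reads were discarded, alpha and beta sums lost different parts of their reads, so the level of the alpha share and of the beta-to-alpha ratio is uncertain too.

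Alas2 (ENSMUSG00000025270, chrX:150547375-150570638, plus strand), the erythroid form of 5-aminolevulinate synthase, had more counted reads than the 4 globins together in every library. Globin reads from windows shared within a pair may have been discarded in counting, so how Alas2 compares with the globins in level is uncertain, here and per kilobase. It had 5655 and 5399 reads (122 and 135 CPM) in KO liver, against 6643 and 6995 reads (157 and 184 CPM) in WT liver. Both KO libraries were below both WT libraries, by a smaller ratio than for the globins: the log2 fold change was -0.40 (SE 0.179, unadjusted p = 0.0549, adjusted p = 0.398, edgeR). There were 1.92 and 1.91 Alas2 reads for each globin read in KO liver, against 1.38 and 1.52 in WT liver. This ratio was higher in both KO libraries than in both WT libraries (exact two-sided permutation p = 0.333, the smallest possible). Apex2, a DNA repair nuclease, overlaps Alas2 on the opposite strand, and the library kit does not keep strand, so reads of the 2 genes cannot be told apart where they overlap. Apex2 had between 264 and 293 reads in all 4 libraries, far fewer than Alas2, and a log2 fold change of -0.15 (adjusted p = 0.871, edgeR).

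Levels of different genes were compared per kilobase (kb) of the longest transcript. Hbb-bs averaged 78.4 CPM per kb over the 4 libraries and ranked 772 of 16764 protein-coding genes with reads, and Alas2 averaged 73.3 CPM per kb and ranked 809. Next came Hba-a1 with 30.2 CPM per kb (rank 1627), Hba-a2 with 23.95 (rank 1954) and Hbb-bt with 12.2 (rank 3217). Klf1 averaged 1.79 CPM per kb (rank 8255) and Slc4a1 0.0106 CPM per kb (rank 14901). The order of the leading pair differed between the genotypes: Alas2 had 60.0 and 66.2 CPM per kb in KO liver, where Hbb-bs had 51.0 and 63.3, whereas in WT liver Alas2 had 76.9 and 90.2 and Hbb-bs 91.6 and 107.6. The values of the 2 genes overlapped in KO liver, and in WT liver the higher Alas2 value was just under the lower Hbb-bs value. Within each library Hba-a1 was above Hba-a2, and Hba-a2 above Hbb-bt.

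Klf1 (ENSMUSG00000054191, chr8:84901928-84905291, plus strand) was the gene of the 7 that was called. It had 31 and 51 reads (0.671 and 1.27 CPM) in KO liver, against 172 and 189 reads (4.06 and 4.97 CPM) in WT liver. Each WT library held several times the reads of either KO library, and the groups lay far apart. Klf1 fell to 0.972 ± 0.427 CPM in KO liver, against 4.51 ± 0.643 CPM in WT liver (SD, n = 2 each), which is 21.5% of the WT level. The log2 fold change was -2.22 (SE 0.359), with an adjusted p of 0.0259 in edgeR's quasi-likelihood test. Leaving out any 1 library gave log2 fold changes between -2.75 and -1.82, all called. Klf1 had 10.5 and 18.0 reads per 1000 globin reads in KO liver, against 35.8 and 41.0 in WT liver, so it was lower relative to the globins as well (exact two-sided permutation p = 0.333, the smallest possible). On the log2 scale Klf1 was thus further below WT than any globin or Alas2, but the difference between these fold changes was not tested.

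Among the 6 tested genes, Klf1 was the 1 called as lower in KO, where 0.947% of all tested genes were called lower and 1.91% in either direction. All 6 had both KO libraries below both WT libraries, against 20.4% of all tested genes. An unadjusted p under 0.05 was reached by 5 of the 6, Alas2 being the exception, against 13.0% of all tested genes. The median log2 fold change of the 6 was -0.84, and that of all tested genes was 0.01. The globins of a pair share reads and all 4 may come from the same cells, so the genes are not independent replicates of a difference.

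**Figure D2:**
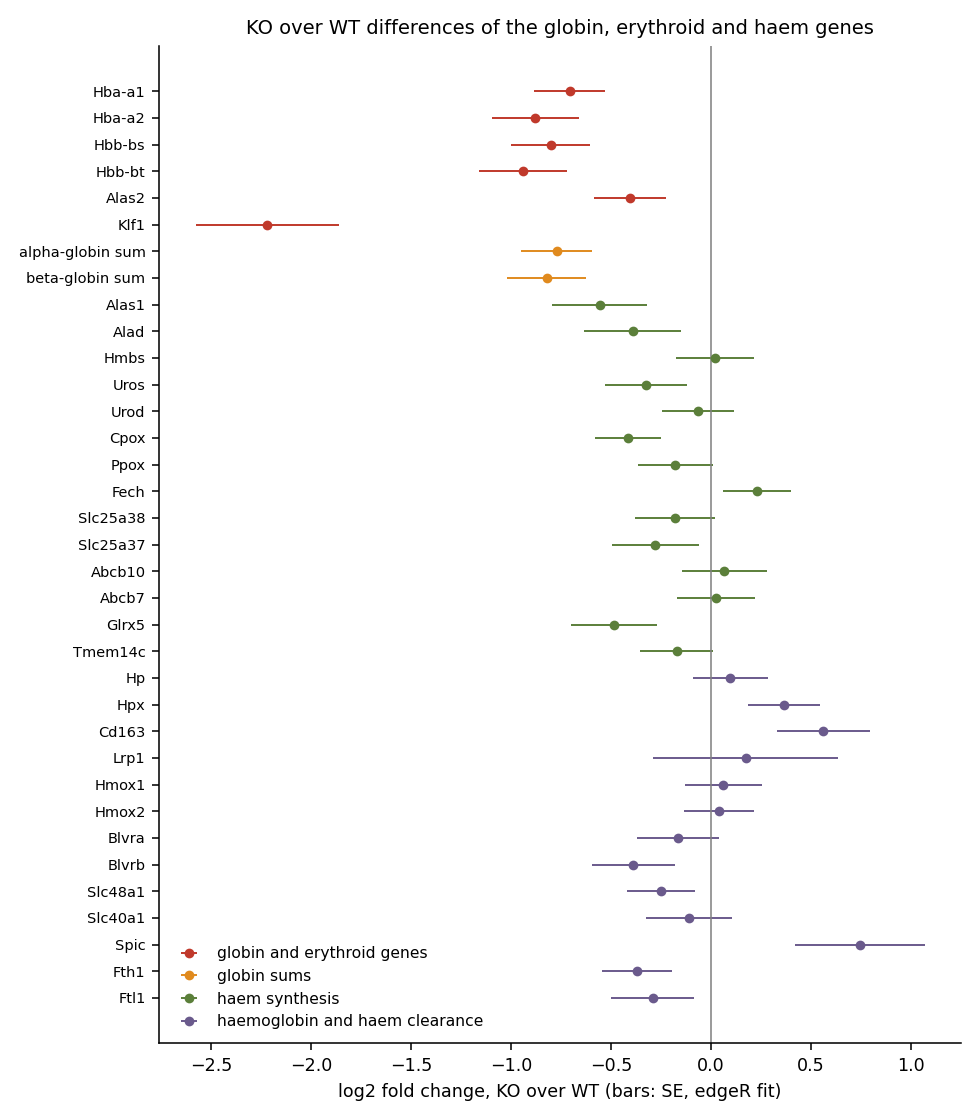
Log2 fold changes of KO over WT from edgeR, with bars of 1 SE, for the 6 tested genes, the summed alpha and beta globins, the haem synthesis list and the list of haemoglobin and haem clearance. All 6 genes and both sums lie left of 0, and Klf1 at -2.22 lies furthest from it.

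The promoters of these genes are shown as a description of their sequence. Whether Klf1 acted on the other genes here was not tested. The 250 bases before the RefSeq transcript start are given 5′ to 3′ on the strand of the gene (GRCm38.p6). Capitals mark GATAA, the core bound by GATA factors, and CACCC, each on either strand, so TTATC and GGGTG are capitals too. RefSeq entries were found for 6 genes. Hba-a1 is not printed, since its entry at chr11:32283422-32283671 is the same as that of Hba-a2 over a run of 297 of 300 bases, shifted by 3 bases.
Hba-a2, chr11:32296242-32296491, plus strand: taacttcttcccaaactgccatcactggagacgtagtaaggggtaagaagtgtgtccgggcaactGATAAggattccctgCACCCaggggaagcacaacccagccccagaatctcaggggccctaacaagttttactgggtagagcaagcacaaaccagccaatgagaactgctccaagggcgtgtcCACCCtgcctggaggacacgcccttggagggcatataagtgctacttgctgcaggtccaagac
Hbb-bs, chr7:103827929-103828178, minus strand: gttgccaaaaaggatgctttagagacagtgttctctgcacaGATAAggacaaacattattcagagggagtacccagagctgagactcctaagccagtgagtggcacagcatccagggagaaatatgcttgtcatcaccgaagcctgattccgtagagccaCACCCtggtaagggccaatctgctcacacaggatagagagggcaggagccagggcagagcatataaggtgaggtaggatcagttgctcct
Hbb-bt, chr7:103813924-103814173, minus strand: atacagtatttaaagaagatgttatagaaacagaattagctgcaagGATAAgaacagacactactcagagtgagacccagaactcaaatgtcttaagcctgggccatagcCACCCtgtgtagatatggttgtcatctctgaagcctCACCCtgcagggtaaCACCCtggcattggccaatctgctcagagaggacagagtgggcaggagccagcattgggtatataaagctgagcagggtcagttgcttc
Alas2, chrX:150547167-150547416, plus strand: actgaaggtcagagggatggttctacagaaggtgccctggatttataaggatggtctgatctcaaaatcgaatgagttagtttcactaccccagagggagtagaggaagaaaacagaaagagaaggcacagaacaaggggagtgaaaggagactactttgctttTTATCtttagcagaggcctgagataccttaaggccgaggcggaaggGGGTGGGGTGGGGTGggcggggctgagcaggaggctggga
Klf1, chr8:84901732-84901981, plus strand: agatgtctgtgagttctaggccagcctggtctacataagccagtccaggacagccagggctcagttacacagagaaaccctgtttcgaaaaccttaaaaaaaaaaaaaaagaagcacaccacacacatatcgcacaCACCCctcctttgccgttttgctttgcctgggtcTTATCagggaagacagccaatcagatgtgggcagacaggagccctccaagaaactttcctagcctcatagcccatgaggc
GENCODE M21 places the outer end of these genes further upstream than RefSeq does, so part of each window lies inside the GENCODE gene body. GATAA occurred in all 6 promoters, against 22.6% of 32851 RefSeq promoters, and CACCC in all 6, against 52.0%. Both motifs together were in 10.1% of all promoters. Hbb-bt held CACCC at 3 places, and Alas2 held 3 copies end to end on the other strand, at bases -40 to -26 counted back from the start. The longer CCACACCC box, which is that of the adult beta-globin gene, occurred in Hbb-bs alone of the 6, at bases -93 to -86, and in 3.20% of all promoters. It contains CACCC, so the 2 motifs overlap. CCAAT was found in both alpha, both beta and the Klf1 promoters (33.8% of all), and TATAA in both alpha, both beta and Alas2 (22.8% of all). The 2 alpha promoters are nearly the same sequence, so the 6 promoters are not independent cases. A match to these letters is a description, and binding was not measured.

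Slc4a1 (ENSMUSG00000006574, chr11:102348824-102366203, minus strand) had 1 and 1 read in KO liver, against 4 and 2 reads in WT liver. The KO counts are lower, but counts of this size are near or under 3 reads, which was chosen as a floor and not measured. Before TMM scaling, 3 reads correspond to between 0.0671 and 0.0759 CPM. No fold change is given. Some other genes of red cells were near 0 too. The ankyrin gene Ank1, which ties the membrane to its skeleton, had 3 and 3 reads in KO liver, against 3 and 2 reads in WT liver. Gata1, the transcription factor at the head of the red cell program, had 0 and 1 reads in KO liver, against 0 and 0 in WT liver. Of 55 further genes on 4 lists of red cell genes (minor globins, transcription factors and receptors, membrane genes, late red cell genes), 20 had at most 3 reads in every library, summing to 14 and 6 reads in KO liver, against 14 and 5 reads in WT liver, and 9 had no read at all. The embryonic and minor globins were absent as well: 6 of them (Hba-x, Hbq1a, Hbq1b, Hbb-y, Hbb-bh1 and Hbb-bh2) had 0 and 0 reads in KO liver, against 1 and 0 in WT liver. Ahsp, the alpha-globin chaperone, was not used here. Of 19 membrane and cytoskeleton genes, 8 had at most 3 reads in every library and 7, most of them also expressed outside red cells, had enough to be tested. Red cell genes were thus unevenly represented, and the 7 genes are called here by their names.

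**Figure D3:**
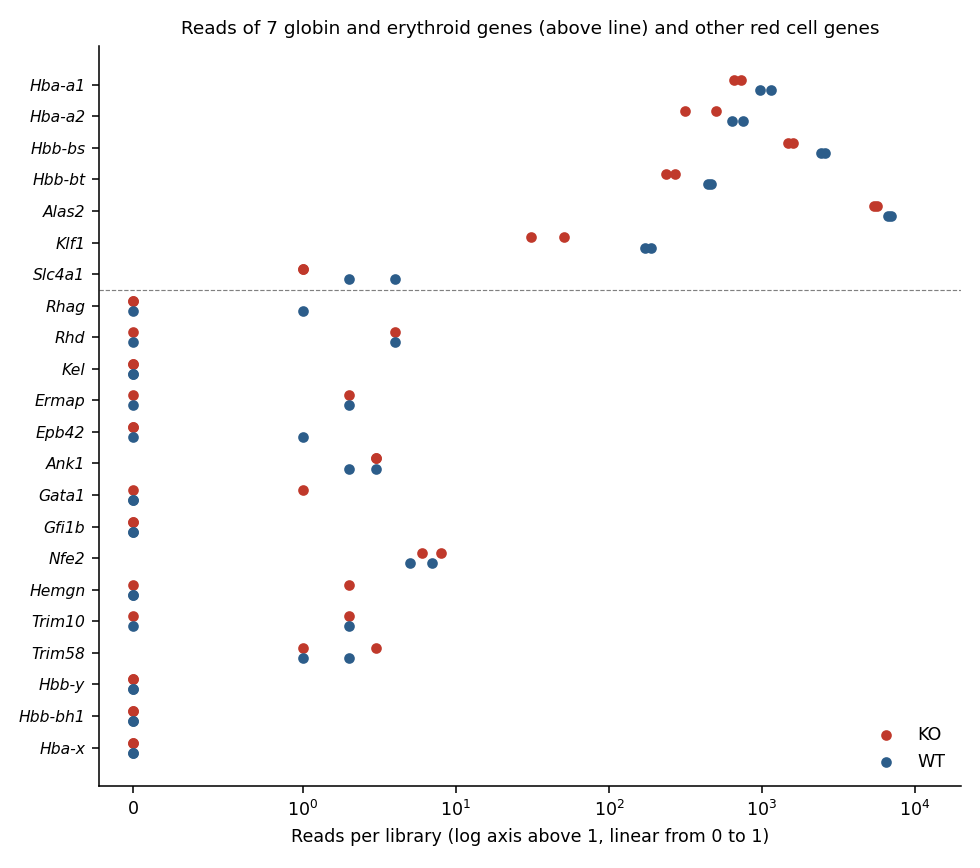
Reads per library of the 7 genes (above the dashed line) and of some other red cell genes, 1 point per library, with KO points above WT points for each gene. The other genes are a choice from the lists, and genes with more reads such as Zfpm1, Tfrc, Aqp1 and Prdx2 are not shown. The axis counts reads and is logarithmic above 1. Globins and Alas2 had between 236 and 6995 reads in each library, while Slc4a1, Ank1 and Gata1 had between 0 and 4.

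Lists of other red cell genes had median log2 fold changes nearer to 0 than that of the globins, or above it. Of 12 erythroid transcription factors and receptors, 8 were tested and 0 were called by edgeR, with 2 at an unadjusted p under 0.05, and 0 by DESeq2 or limma-voom. Their median log2 fold change was 0.38. Zfpm1, the cofactor of GATA factors, had 113 and 82.1 CPM in KO liver, against 89.4 and 67.8 CPM in WT liver, so the groups overlapped. Tfrc, the transferrin receptor through which precursors take up iron, had 17.1 and 19.1 CPM in KO liver, against 9.62 and 13.5 CPM in WT liver (log2 fold change 0.65, adjusted p = 0.256, edgeR). Ldb1, which bridges erythroid complexes on DNA, had 40.3 and 46.0 CPM in KO liver, against 31.1 and 32.4 CPM in WT liver (0.44, adjusted p = 0.351). For both genes the KO libraries were above the WT libraries, the opposite order to that of Klf1. These genes are also expressed outside the red cell lineage. Epor, the erythropoietin receptor, had between 17 and 51 reads, with the second WT library above the other 3.

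Of 19 genes of the red cell membrane and its skeleton, 7 were tested and 0 were called by edgeR, DESeq2 or limma-voom, none at an unadjusted p under 0.05, with a median log2 fold change of -0.02. Aqp1, a water channel also found in endothelium, had 69.8 and 49.5 CPM in KO liver, against 47.0 and 74.3 CPM in WT liver. Of 18 late red cell and reticulocyte genes, 14 were tested and 0 were called by the same 3 tools, with 1 at an unadjusted p under 0.05 and a median log2 fold change of -0.08. That gene was Car2, a carbonic anhydrase, with 57 and 72 reads in KO liver, against 119 and 145 reads in WT liver (log2 fold change -1.13, adjusted p = 0.163, edgeR). Its red cell relative Car1 had the other order, 243 and 199 reads in KO liver, against 158 and 156 reads in WT liver (0.39, adjusted p = 0.556). Prdx2, a peroxidase abundant in red cells, overlapped between the groups, with 111 and 137 CPM in KO liver, against 102 and 140 CPM in WT liver.

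All 14 genes of haem synthesis, a pathway that hepatocytes run for their cytochromes as well, were tested, and 0 were called by edgeR, DESeq2 or limma-voom, with 2 at an unadjusted p under 0.05. Their median log2 fold change was -0.18; both KO libraries were below both WT libraries for 6 and above them for 1, against 20.4% and 21.6% of all tested genes, and 7 overlapped. Alas1, the form of the enzyme used outside red cells, had 344 and 309 CPM in KO liver, against 374 and 588 CPM in WT liver (log2 fold change -0.56, adjusted p = 0.374, edgeR), the second WT library standing above the other 3. Cpox, a later enzyme of the pathway, had 160 and 169 CPM in KO liver, against 221 and 218 CPM in WT liver (-0.41, adjusted p = 0.344). Fech, which inserts the iron, had the opposite order, 176 and 195 CPM in KO liver, against 154 and 162 CPM in WT liver (0.23, adjusted p = 0.660).

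The genes through which liver and macrophages clear free haemoglobin and haem gave no call either: 0 of 13 tested by edgeR, DESeq2 or limma-voom, with 1 at an unadjusted p under 0.05 and a median log2 fold change of 0.04. Hp, haptoglobin, which binds free haemoglobin, had 2834 and 3310 CPM in KO liver, against 2611 and 3133 CPM in WT liver. Hpx, haemopexin, which binds free haem, had 3720 and 4345 CPM in KO liver, against 2967 and 3284 CPM in WT liver (log2 fold change 0.37, adjusted p = 0.452, edgeR). Cd163, the macrophage receptor for the haptoglobin complex, had 539 and 476 reads in KO liver, against 274 and 361 reads in WT liver (0.56, adjusted p = 0.363), and Hmox1, which opens the haem ring, had 662 and 638 reads in KO liver, against 561 and 599 in WT liver (0.06, adjusted p = 0.95). In the axis that links red cell production to iron, 5 of 7 genes were tested and edgeR and limma-voom called 0, with 1 at an unadjusted p under 0.05, whereas DESeq2 called 1. Hamp, hepcidin, had 8686 and 11494 reads in KO liver, against 11664 and 8678 reads in WT liver, with the groups overlapping. Its relative Hamp2 had 1058 and 1389 reads in KO liver, against 2177 and 2009 reads in WT liver (log2 fold change -0.85, adjusted p = 0.141, edgeR). Epo, erythropoietin, had no read in any library, and Erfe, which red cell precursors secrete, had between 1 and 3.

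Other blood cells leave RNA in the same tissue, and for none of 4 lists of their markers was the summed level lower in both KO libraries than in both WT libraries. Summed over 13 neutrophil markers, the level was 8.54 and 10.1 CPM in KO liver, against 9.08 and 8.85 CPM in WT liver. Of these, 6 (Ngp, Camp, Ltf, Mpo, Retnlg and Mmp8) had at most 3 reads in every library. The 12 platelet markers summed to 10.4 and 11.1 CPM in KO liver, against 8.37 and 10.8 CPM in WT liver, the 17 lymphocyte markers to 92.3 and 103.4 CPM in KO liver, against 70.8 and 115.7 CPM in WT liver, and the 10 monocyte markers to 13.5 and 14.2 CPM in KO liver, against 7.55 and 10.4 CPM in WT liver. In the order just given, edgeR tested 6, 4, 8 and 10 genes of the 4 lists and called 0 in each, with 2, 0, 3 and 1 at an unadjusted p under 0.05. DESeq2 called 0, 0, 1 and 1, and limma-voom 0 in each. The median log2 fold changes were 0.14, -0.06, 0.09 and 0.06. Ighm, the heavy chain of IgM, was lower in both KO libraries than in both WT libraries, with 481 and 665 reads in KO liver, against 993 and 1722 reads in WT liver (log2 fold change -1.35, adjusted p = 0.124, edgeR), while Treml4, of circulating monocytes, had 204 and 214 reads in KO liver, against 39 and 82 in WT liver (1.67, adjusted p = 0.0927). Other markers on both lists went the other way. Of the 8 tested lymphocyte markers, 5 had positive and 3 negative log2 fold changes, between -1.35 and 2.13. Of the 10 monocyte markers, 5 were positive and 5 negative, between -1.34 and 1.67.

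Markers of Kupffer cells had the opposite order to the globins. All 12 were tested, and all 12 had both KO libraries above both WT libraries, against 21.6% of tested genes, with a median log2 fold change of 0.88. Their sum was 357 and 384 CPM in KO liver, against 164 and 248 CPM in WT liver. EdgeR called 2 of the 12 as higher, against 0.961% of tested genes. DESeq2 called 4 of the 12, where it called 574 of all 13836 tested genes in either direction. The count called by edgeR depended on single libraries, and went both up and down with the library left out. Marco, a scavenger receptor, had 469 and 501 reads in KO liver, against 139 and 149 reads in WT liver (log2 fold change 1.66, SE 0.232, adjusted p = 0.0155, edgeR). Csf1r, the receptor for the macrophage growth factor, had 2139 and 1636 reads in KO liver, against 889 and 897 reads in WT liver (0.97, SE 0.185, adjusted p = 0.0478, edgeR). It was not called without the first KO library (0.88, adjusted p = 0.0832) or without the first WT library (0.89, adjusted p = 0.0681). The part of these cells in the level of the globins was not tested.

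Markers of sinusoidal endothelium and of hepatocytes, the tissue named by the labels, were present in every library. The 10 endothelial markers summed to 214 and 179 CPM in KO liver, against 160 and 223 CPM in WT liver, with a median log2 fold change of 0.09. The 10 hepatocyte markers summed to 94392 and 101900.0 CPM in KO liver, against 84294 and 90908 CPM in WT liver, with a median log2 fold change of 0.20. EdgeR called 0 of 10 on each list, with 1 at an unadjusted p under 0.05 on each, and limma-voom called 0, whereas DESeq2 called 1 on each. Of 9 markers of blood progenitors and cycling cells, 7 were tested, with a median log2 fold change of -0.78, and 1 was called as lower by edgeR, where 0.947% of all tested genes were called lower. DESeq2 called 1 and limma-voom 0. Mki67, a gene of dividing cells, had 20 and 16 reads in KO liver, against 76 and 58 reads in WT liver (log2 fold change -1.99, SE 0.380, adjusted p = 0.0478, edgeR), a call lost with limma-voom (adjusted p = 0.0629) and with library size alone (adjusted p = 0.0807). Birc5, which acts in cell division, had 33 and 28 reads in KO liver, against 43 and 54 reads in WT liver (-0.78, adjusted p = 0.466, edgeR). Cdk1, the kinase that drives mitosis, had 22 and 24 reads in KO liver, against 46 and 44 reads in WT liver (-1.06, adjusted p = 0.313, edgeR). Of the 7 tested markers, 4 had negative and 3 positive log2 fold changes, the highest 0.44. Both KO libraries were below both WT libraries for 4 of the 7, against 20.4% of all tested genes, and the groups overlapped for 3. Cycling cells of any type carry the transcripts of Mki67, Birc5 and Cdk1.

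The libraries numbered 2 and 1 differed with transcript length in both genotypes, and globin transcripts are short. Length classes were taken from tested protein-coding genes with reads in every library. Where the longest transcript was under 1000 bases (499 genes), the median log2 ratio of library 2 over library 1 was 0.18 in KO and 0.36 in WT. Over 8000 bases (714 genes), it was -0.46 in KO and -0.49 in WT. The median log2 fold change of KO over WT ran less steeply, at -0.11 under 1000 bases and 0.11 over 8000 bases. The longest transcripts of the 4 globins ranged between 554 and 703 bases. Their log2 ratios of library 2 over library 1 were not all of 1 sign: Hbb-bs had 0.31 in KO and 0.23 in WT, and Hba-a2 -0.45 in KO and -0.10 in WT. Between libraries of the same number, the log2 ratio of KO over WT was -0.77 for number 1 and -0.64 for number 2 for Hba-a1, -0.72 and -1.07 for Hba-a2, -0.84 and -0.77 for Hbb-bs and -1.11 and -0.79 for Hbb-bt. It was -0.36 for number 1 and -0.45 for number 2 for Alas2, and -2.60 and -1.96 for Klf1, so KO was lower within each number for all 6. With a trend on length removed from each library, edgeR called Klf1 (adjusted p = 0.0123), Hbb-bs (log2 fold change -0.80, adjusted p = 0.0307) and Hbb-bt (-0.94, adjusted p = 0.0417), and the alpha sum (-0.77, adjusted p = 0.0483) and beta sum (-0.82, adjusted p = 0.0282). Hba-a1 (-0.70, adjusted p = 0.0639), Hba-a2 (-0.88, adjusted p = 0.0789) and Alas2 (-0.37, adjusted p = 0.243) were not called. Fold changes of called and uncalled genes alike stayed close to those of the main fit. With the trend removed, 493 of all 13836 tested genes were called, against 264 in the main fit.

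**Figure D4:**
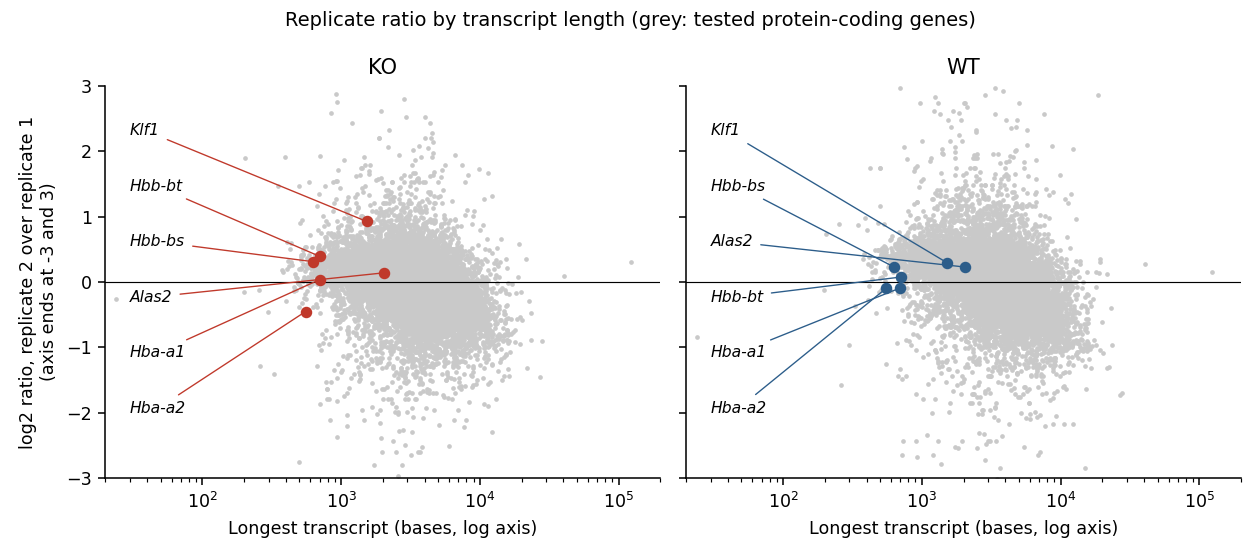
Log2 ratio of library 2 over library 1 against the length of the longest transcript (log axis), in KO (left) and WT (right), with tested protein-coding genes in grey and the 6 tested genes in colour. The grey cloud lies lower at greater length in both genotypes, with medians of -0.46 in KO and -0.49 in WT over 8000 bases, while the globins, all under 1000 bases, lie on both sides of 0.

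Genes beside these 7 on the chromosome were compared in the same way, over 500 kb on either side of Hba-a1, Hbb-bs, Alas2, Klf1 and Slc4a1. Of 74 tested neighbours, 3 were called by edgeR, all of them among the 33 near Klf1, where 1.91% of all tested genes were called. The other tested neighbours were 9 near Hba-a1, 4 near Hbb-bs, 6 near Alas2 and 22 near Slc4a1. Nprl3, 15.8 kb from Hba-a1, whose introns hold the distant enhancers of the alpha globins, had 505 and 426 reads in KO liver, against 555 and 539 reads in WT liver (log2 fold change -0.34, adjusted p = 0.520, edgeR).

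Near Klf1, Fbxw9, an F-box gene 155 kb away, fell, with 606 and 506 reads in KO liver, against 1206 and 1395 reads in WT liver (log2 fold change -1.34, SE 0.202, adjusted p = 0.0206, edgeR). Gadd45gip1, a mitochondrial ribosome gene 66.4 kb away, had 469 and 393 reads in KO liver, against 885 and 929 reads in WT liver and fell too (-1.18, SE 0.190, adjusted p = 0.0255, edgeR). Cacna1a, a calcium channel gene 262 kb away, rose, with 152 and 108 reads in KO liver, against 22 and 17 reads in WT liver (2.62, SE 0.331, adjusted p = 0.0113, edgeR). The genes closest to Klf1 were not called. Dnase2a, a lysosomal nuclease 3.27 kb away, had 802 and 718 reads in KO liver, against 603 and 625 in WT liver (0.20, adjusted p = 0.737, edgeR). Mast1, a kinase 6.61 kb away, had 85 and 52 reads in KO liver, against 50 and 17 in WT liver (0.94, adjusted p = 0.494, edgeR), so both KO libraries were above both WT libraries. The next genes had the opposite order. Gcdh, a lysine-degrading enzyme 8.01 kb away, had 22633 and 22342 reads in KO liver, against 31449 and 34515 in WT liver (-0.65, adjusted p = 0.164), and Syce2, of the meiotic synapse, 13.7 kb away, had 175 and 148 reads in KO liver, against 258 and 257 in WT liver (-0.78, adjusted p = 0.169). Klf1 lies on chromosome 8 as Fto does, its end 6.41 Mb before the start of Fto. Position on the chromosome and loss of Fto cannot be told apart for these genes in this design.

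**Figure D5:**
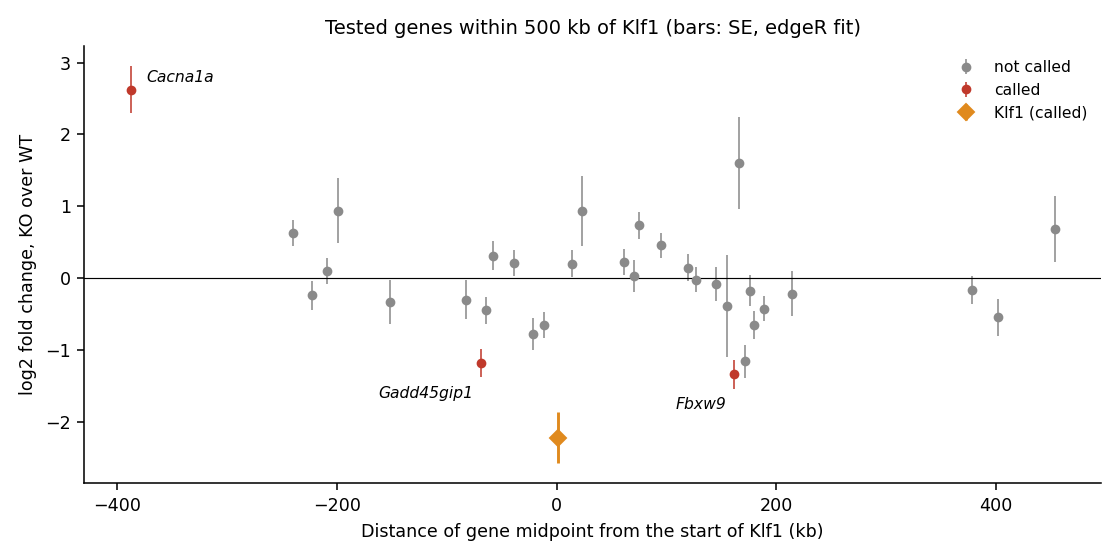
Log2 fold change of KO over WT, with bars of 1 SE, for the tested genes within 500 kb of Klf1, by the distance of their midpoint from its start in kb. Called genes are coloured: Fbxw9 at -1.34 and Gadd45gip1 at -1.18 lie below 0 with Klf1, Cacna1a at 2.62 lies above, and the genes between are grey and lie on both sides of 0.

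The 5 tested protein-coding genes whose levels over the 4 libraries were most like those of the summed globins, out of 10163 with a mean of at least 2 CPM, were BC024139, Gpd1, Def8, Uck1 and Churc1. Likeness was the Euclidean distance between log2 CPM deviations from the mean, and these 5 had distances between 0.04 and 0.09. Gpd1, the cytosolic glycerol-3-phosphate dehydrogenase, had 337 and 375 CPM in KO liver, against 613 and 669 CPM in WT liver (log2 fold change -0.85, adjusted p = 0.0580, edgeR). The 5 had adjusted p between 0.0580 and 0.184 in edgeR and so were not called. The globins themselves were no nearer to their own sum: Hbb-bs was at 0.15, with 19 other genes nearer, Hba-a1 at 0.18 with 39, Hbb-bt at 0.23 with 85, and Hba-a2 at 0.45 with 616. Alas2 was at 0.41 with 459 nearer and Klf1 at 1.58 with 9699 nearer. With 4 libraries, many genes share any given profile, and nothing about a common origin is read from it.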

How the data were processed

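Per the labels' protocols, polyadenylated liver RNA was made into TruSeq libraries, a kit that keeps no strand, and read in pairs of 101 bases. The authors deposited 1 raw read count per Ensembl gene and library. Per the submitters' processing notes, TopHat2 2.1.1, HTSeq 0.6.0 and the build mm10 were used. Which annotation release and counting options they used is not given in the sources used here. Of 37315 identifiers, 35533 matched GENCODE M21 and 1782 did not, with between 0.143% and 0.194% of a library's counts. No column of another sample was present. Libraries were grouped by the genotype in their titles. No pair agreed within sampling noise (chi-square per degree of freedom between 86.5 and 226.03), so none looked like 1 library entered again. This check cannot tell whether the libraries came from separate mice, which the labels do not say. Each was counted as 1 replicate.

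From the deposited counts, KO was compared with WT over all genes with edgeR 4.0.16 in R 4.3.3: filterByExpr (minimum count 10, minimum total 15), TMM scaling and the robust, two-sided quasi-likelihood test on genotype alone. Benjamini-Hochberg adjustment ran over all 13836 tested genes, and calls were made at an adjusted p under 0.05. An SE was obtained from each log2 fold change and its F statistic. CPM levels include the TMM scaling. For the sums, the genes of a pair were replaced by their summed counts. The procedure was tested on simulated data. Alternatives were DESeq2 1.42.0 and its size factors, limma-voom (limma 3.58.1), library size alone and no filter. Further ones were the 7 genes and the globin sums left out of the scaling, a length trend removed, a replicate block and each library left out. The genes and lists were chosen with earlier results of these data known. The text names the 7 genes, Fto, called genes of the lists, up to 4 further genes per list with the highest CPM, called neighbours within 500 kb and the 5 nearest profiles; Car1, Car2, Prdx2, Cd163, Hmox1, Epor, Birc5, Cdk1, genes with few or no reads and neighbours that were not called were chosen after their values were seen.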

Additional observations from a re-analysis of the deposited data

How the results depend on the processing

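The direction of all 6 tested genes and both globin sums held under every alternative, and Klf1 was called under all 13 of them. The other genes crossed the threshold under some. Without a filter on low counts, log2 fold changes were -0.70 for Hba-a1 (adjusted p = 0.0442), -0.88 for Hba-a2, -0.80 for Hbb-bs, -0.94 for Hbb-bt, -0.77 for the alpha sum and -0.82 for the beta sum, all called. DESeq2 gave -0.89 for Hba-a2, -0.81 for Hbb-bs, -0.95 for Hbb-bt, -0.78 for the alpha sum and -0.83 for the beta sum, all called. Removing a length trend gave -0.80 for Hbb-bs, -0.94 for Hbb-bt, -0.77 for the alpha sum and -0.82 for the beta sum, called. Over all alternatives without a block, adjusted p ran up to 0.365 for Hba-a1, 0.325 for Hba-a2, 0.420 for Hbb-bs, 0.317 for Hbb-bt and 0.885 for Alas2. Leaving out each library gave log2 fold changes between -0.76 and -0.66 for Hba-a1, -1.12 and -0.68 for Hba-a2, -0.97 and -0.65 for Hbb-bs, -1.15 and -0.76 for Hbb-bt, -0.51 and -0.29 for Alas2, -0.84 and -0.71 for the alpha sum and -0.997 and -0.67 for the beta sum. The cause was not tested.

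The labels do not say that equal replicate numbers share an animal or batch, and with 2 pairs the numbers were not taken to pair the libraries; differences between the numbers correlated with r = 0.43 between genotypes across 13836 genes, which are not independent replicates. With a replicate block, log2 fold changes were -0.71 for Hba-a1, -0.89 for Hba-a2, -0.80 for Hbb-bs, -0.95 for Hbb-bt, -0.40 for Alas2, -0.77 for the alpha sum and -0.83 for the beta sum, and with the block and the length trend removed -0.70, -0.90, -0.80, -0.94, -0.37, -0.77 and -0.82, all called.

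Counts of calls moved more. Of all genes, 264 were called, against 829 without the filter, 574 by DESeq2, 493 with the length trend removed, 2729 with the block, 2884 with both, and 474 to 571 without 1 library. Of the 6 tested genes, 1 was called, against 5, 4, 3, 6 and 6 in the same order. Without the filter Slc4a1 was tested too, so the 5 are of 7 genes. On the lists of related genes 3 were called, against 18, 10, 10, 38 and 40, 1 with library size alone, and 6 to 14 without 1 library. Of the neighbours 3 were called, against 6 without the filter, 5 with the length trend removed, 16 with the block and 16 with both. Library size alone lost the calls of Csf1r (0.99, adjusted p = 0.0738) and Mki67 (-1.97, adjusted p = 0.0807), and limma-voom that of Mki67 (-1.96, adjusted p = 0.0629). Depth limits what can be said of Slc4a1 and other genes with under 10 reads, and 2 libraries a group limit the rest.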
